A study of Mus musculus with 12 samples.

Results

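Clotting and complement are 2 cascades of plasma proteins that the liver makes and secretes. In coagulation, serine proteases activate one another in turn until thrombin cuts fibrinogen into fibrin, plasmin later dissolves the clot, and serpins and the protein C pathway hold the proteases back. In complement, antibody, lectins or spontaneous turnover activate convertases that cleave C3 and then C5, and the terminal components assemble into a pore. Hepatocytes are the main source of most of these proteins, and many of them change in the acute-phase response. The 44 genes described here are 26 coagulation, fibrinolysis and related inhibitor genes and 18 complement genes, taken by symbol from a written list and found among the 50600 genes counted in each liver library. All 44 were among the 15219 genes that passed the filter on low counts, so none was left out.

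RNA with poly(A) tails was sequenced from livers of mice of the strain Rosa26-LSL-dCas9-p300, in 3 groups of 4 libraries. Every mouse, PBS mice included, carried the Rosa26 allele, a nuclease-dead Cas9 joined to the histone acetyltransferase p300 behind a stop cassette that Cre removes. The Pdx1 gRNA group received adeno-associated virus, AAV.Cbh.gRNA, with a guide RNA (gRNA) to Pdx1, a pancreatic transcription factor gene that liver keeps silent, the control gRNA group received the same kind of virus with a control guide, and the PBS group received no virus. Mice about 8 weeks old received the injection through the tail vein, with 1e+12 viral genomes per mouse in the virus groups, and the livers were collected after 2 weeks. Where Cre came from is not stated in the labels. Nor do they tie each library to a separate mouse. The spread behind each p-value is that between libraries, and how much of it is technical is not known. In the PBS group the sex patterns given below came from different mice. Virus, guide and any expressed fusion differ together between either virus group and PBS, and cannot be told apart in those comparisons.

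Libraries held 11824767 to 22008046 assigned counts, of which the 44 genes took 2.4 to 3.48% in Pdx1 gRNA livers, 2.24 to 2.84% in control gRNA livers and 3.59 to 5.54% in PBS livers. The targeted gene Pdx1 had 26, 32, 54 and 256 counts after the Pdx1 gRNA, 0, 0, 0 and 2 after the control gRNA, and 0 in each PBS library. Some libraries stood apart. Pdx1 gRNA library 4 was the lowest of its group for 40 of the 44 genes, control gRNA library 1 for 41 and PBS library 1 for 31. PBS libraries 2 and 3 held 1024 and 828 counts of the Y-linked Ddx3y and 33 and 43 of Xist, while the other 10 libraries held at most 3 of Ddx3y and at least 10696 of Xist, so those PBS livers had a male pattern and all virus livers a female one. Counts below are therefore also given without PBS libraries 2 and 3, which leaves PBS libraries 1 and 4.

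Per length, the 44 genes spanned a wide range in PBS livers. The most abundant was C3, the central complement component, at 4168 ± 2798 transcripts-per-million units (TPM, mean ± SD, n = 4). It was followed by Fga at 3059.6 ± 652, Fgg at 2954 ± 484, Vtn at 2895 ± 387, Fgb at 2256 ± 555 and Plg at 2082 ± 618 TPM. Each step between neighbours in that order was smaller than the SD of at least one of the pair, except that from Vtn to Fgb, and C3 had the widest spread, with PBS library 4 highest. The least abundant were C2 at 19.3 ± 2.496 and Thpo at 19 ± 9.09 TPM. Exons of 10 of the genes shared bases with exons of another annotated gene, and for 6 the shared part was over 10% of the exon length: Cfb at 79.5%, Masp2 at 54.94%, C2 at 46.93%, Klkb1 at 43.19%, Serpinc1 at 34.43% and C1s1 at 18.41%. Fragments in shared bases cannot be assigned to one gene, so the levels of these 6 between genes are uncertain. Together the 44 genes took 1.76 to 2.51% of all TPM in Pdx1 gRNA livers, 1.64 to 1.99% in control gRNA livers and 2.47 to 4.29% in PBS livers.

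**Figure D1:**
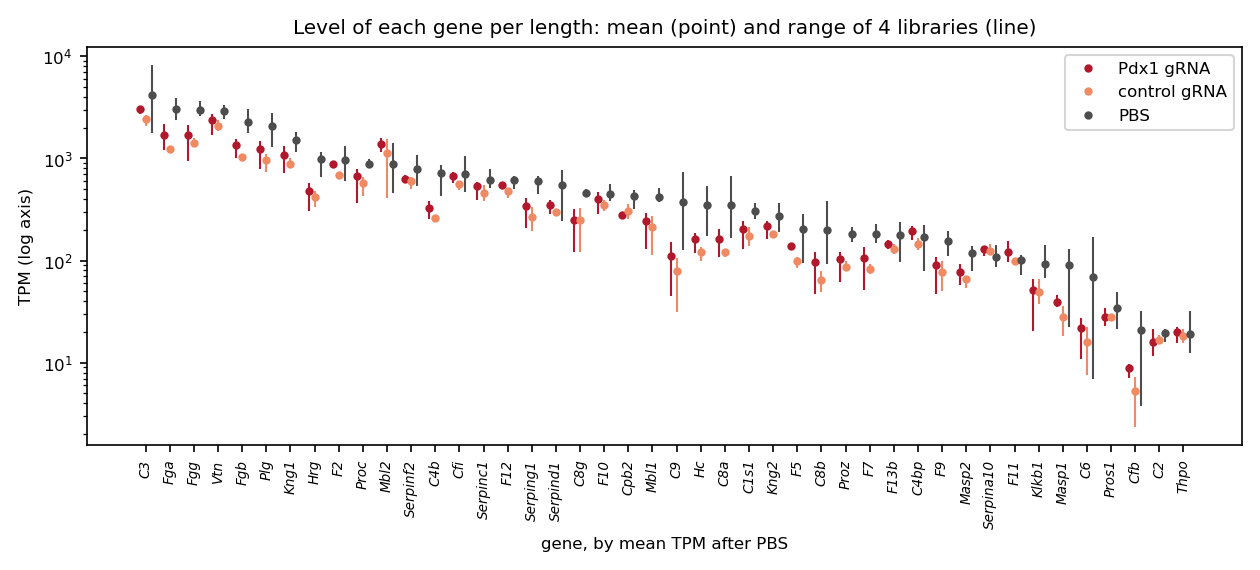
TPM of the 44 genes on a log axis, ordered from left to right by the mean of the PBS livers; points are means and lines span the lowest to the highest of 4 libraries, with Pdx1 gRNA, control gRNA and PBS side by side for each gene. C3 stands first at 4168 TPM in PBS livers, and Thpo last at 19 TPM.

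The comparison of control gRNA with PBS livers asks what virus without the Pdx1 guide was accompanied by. In it 35 of the 44 genes fell, 21 of 26 in coagulation and 14 of 18 in complement, and none rose; "fell" is used for a Benjamini-Hochberg adjusted p under 0.05 over all genes (edgeR quasi-likelihood test, two-sided). Among all 15219 genes 15.8% fell, and 16.3% rose. None of the 44 was higher at an unadjusted p under 0.05, and limma-voom and DESeq2 called none higher either. The log2 fold change was negative for 43 genes, Mbl2 being the exception, against 50.5% of all genes. Its median was -1.10 over the 44 genes and -0.0072 over all genes. For 29 genes every control gRNA library lay below every PBS library, against 12.3% of all genes. Left with PBS libraries 1 and 4 alone, 16 genes fell, 11 in coagulation and 5 in complement, against 7.05% of all genes, and the median was -0.99. The median SE was 0.33 in that fit and 0.28 with all libraries. The complement median moved from -1.29 to -1.03 and the coagulation median from -0.86 to -0.97. Why fewer genes were called there was not tested. Each of those 16 was among the 35. Without Pdx1 gRNA library 4 and control gRNA library 1, 29 genes fell, 17 in coagulation and 12 in complement, against 13% of all genes. In such bulk tissue, fewer cells of a type and less RNA per cell cannot be told apart.

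The comparison of Pdx1 gRNA with PBS livers, which uses the same PBS libraries, gave 17 genes that fell, 9 in coagulation and 8 in complement, and none that rose by edgeR, DESeq2 or limma-voom. Among all genes 10.4% fell and 11.7% rose. The median log2 fold change was -0.82 over the 44 genes and -0.055 over all genes. For 18 genes every Pdx1 gRNA library lay below every PBS library, against 8.74% of all genes. Against PBS libraries 1 and 4 alone only Cpb2 and C4b fell, against 3.4% of all genes, with a median of -0.68. Without Pdx1 gRNA library 4 and control gRNA library 1, 14 fell, 8 in coagulation and 6 in complement, against 6.21% of all genes. For 18 genes all 8 virus libraries lay below all 4 PBS libraries, against 6.96% of all genes: F12, Klkb1, F7, F9, Fga, Fgb, Fgg, Plg, Cpb2, Hrg, Proc, Proz, C1s1, Mbl1, C4b, C8g, C9 and Serping1.

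**Figure D2:**
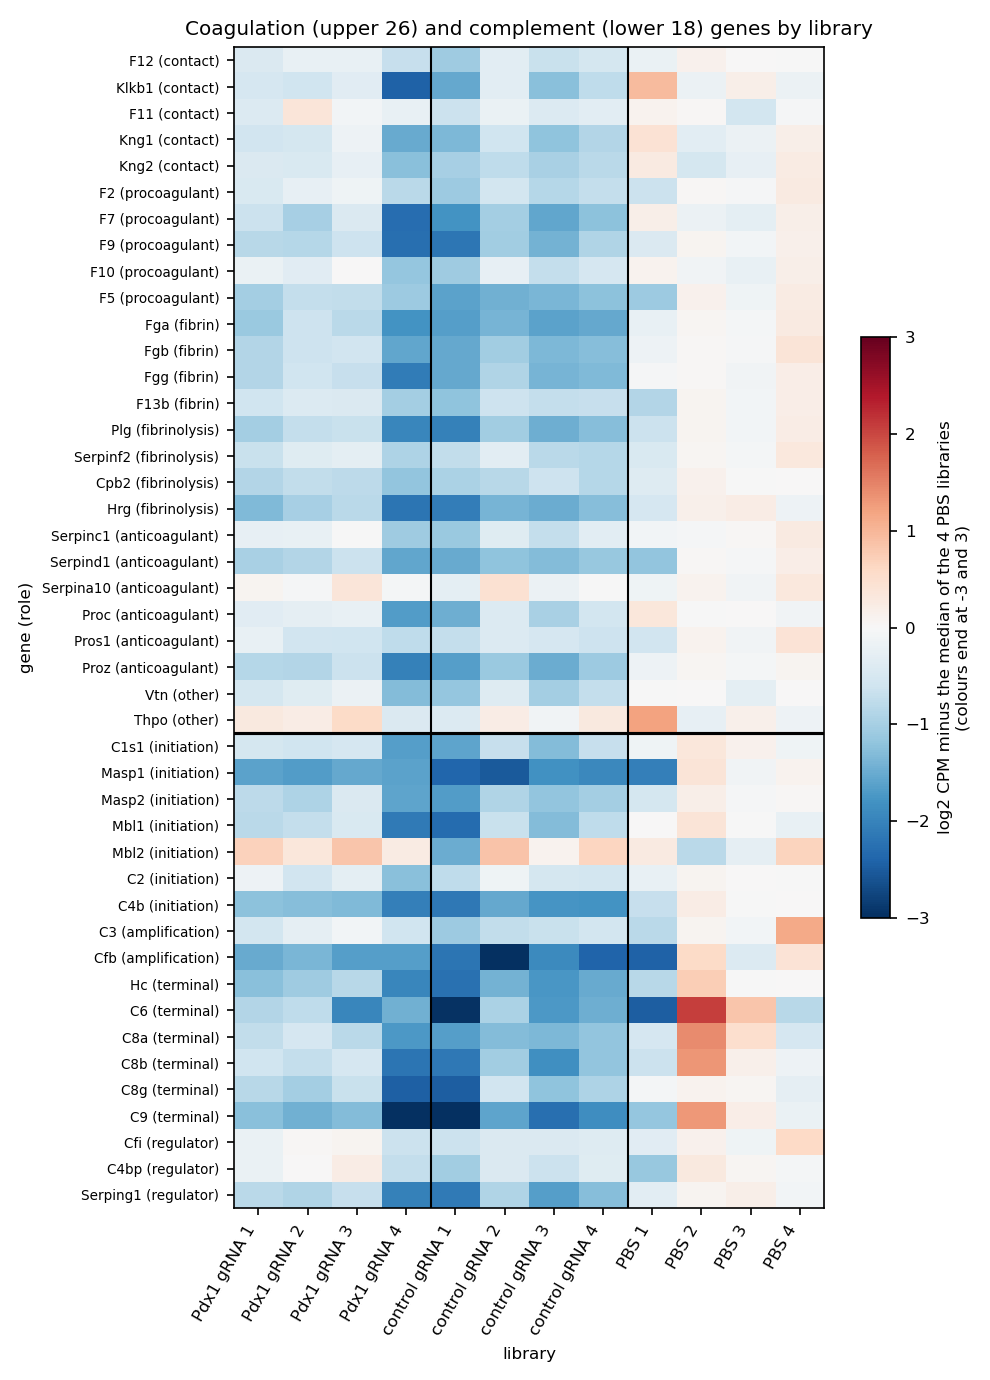
Colour gives, for each gene (rows, with its role) and library (columns), log2 CPM minus the median of the 4 PBS libraries, with colours ending at -3 and 3. Blue cells fill most of the virus columns, deepest in Pdx1 gRNA library 4 and control gRNA library 1, the lowest of their groups for 40 and 41 genes, while Mbl2, Serpina10 and Thpo stand out as pale or red rows.

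**Figure D3:**
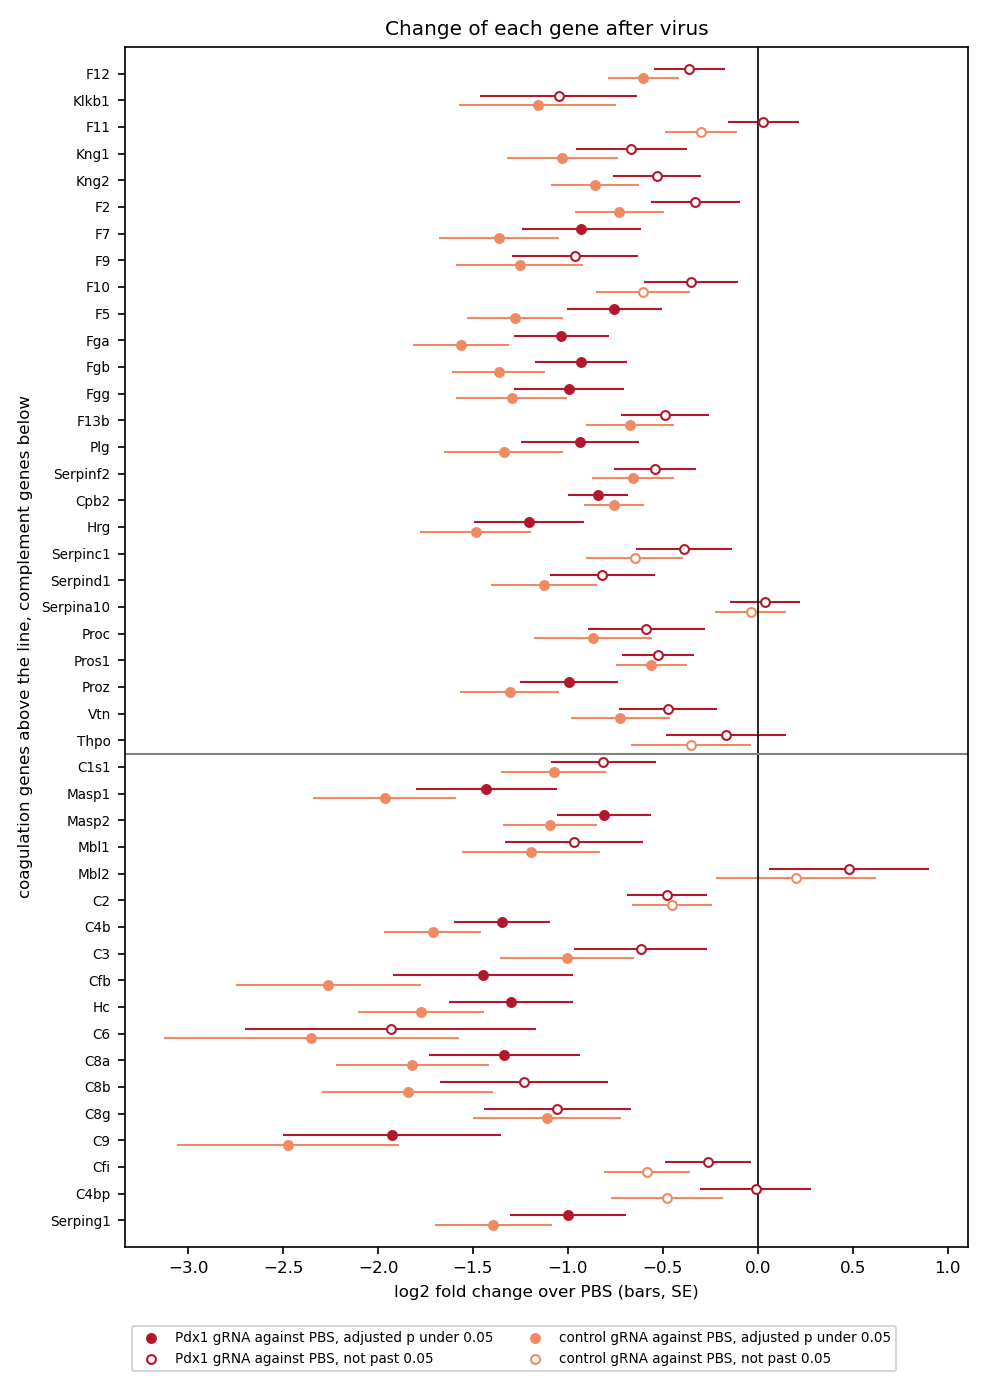
Log2 fold change over PBS (points) with its SE (bars) for Pdx1 gRNA and control gRNA livers, coagulation genes above the line and complement genes below; filled points have an edgeR adjusted p under 0.05, 17 for Pdx1 gRNA and 35 for control gRNA. The 2 sets of points share the PBS libraries.

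Fibrinogen, the substrate of the clot, fell in both virus groups. Its chains are encoded by 3 genes within one cluster on chromosome 3 (mm10). Fga (α chain, ENSMUSG00000028001.16, chromosome 3, 83026076 to 83033627, plus strand) had 2053, 2879, 2544 and 1268 CPM in Pdx1 gRNA livers, 1412, 1678, 1446 and 1528 CPM in control gRNA livers and 3779, 4604, 4244 and 5289 CPM in PBS livers (CPM, counts-per-million units on library sizes scaled by TMM, for libraries 1 to 4 in each group). Fgb (β chain, ENSMUSG00000033831.5, chromosome 3, 83040141 to 83049863, minus strand) had 2163, 2567, 2655 and 1356 CPM in Pdx1 gRNA livers, 1364, 1914, 1552 and 1651 CPM in control gRNA livers and 3554, 4100.4, 3853 and 5184 CPM in PBS livers. Fgg (γ chain, ENSMUSG00000033860.13, chromosome 3, 83007724 to 83015049, plus strand) had 1617, 1939.6, 1819.8 and 689 CPM in Pdx1 gRNA livers, 1021, 1580.1, 1124 and 1186 CPM in control gRNA livers and 2865, 3050.4, 2744 and 3405 CPM in PBS livers. For each chain all 8 virus libraries lay below all 4 PBS libraries, and Pdx1 gRNA library 4 was the lowest of its group. In Pdx1 gRNA livers the log2 fold changes over PBS were -1.03 ± 0.25 (edgeR adjusted p = 0.0119) for Fga, -0.93 ± 0.24 (edgeR adjusted p = 0.0169) for Fgb and -0.99 ± 0.29 (edgeR adjusted p = 0.0279) for Fgg. In control gRNA livers the levels of Fga, Fgb and Fgg were 33.9%, 38.8% and 40.7% of PBS, with log2 fold changes of -1.56 ± 0.25 (edgeR adjusted p = 0.00109), -1.36 ± 0.24 (edgeR adjusted p = 0.001899) and -1.30 ± 0.29 (edgeR adjusted p = 0.00583). Against PBS libraries 1 and 4 alone these were -1.61, -1.46 and -1.38, still called. In that setting the Pdx1 gRNA values were -1.07 ± 0.31 (edgeR adjusted p = 0.0571), -1.02 ± 0.30 (edgeR adjusted p = 0.0612) and -1.07 ± 0.36 (edgeR adjusted p = 0.0877), no longer called. The chains also took a smaller share of the TPM of the 44 genes, 17.9 to 23.4% in Pdx1 gRNA livers and 17.9 to 22.8% in control gRNA livers, against 24.6 to 27.4% in PBS livers. F13b, the carrier subunit of factor XIII, which cross-links fibrin, fell in control gRNA livers (-0.67 ± 0.23 (edgeR adjusted p = 0.0408)) and had a log2 fold change of -0.49 ± 0.23 (edgeR adjusted p = 0.148) in Pdx1 gRNA livers.

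For the fibrinogen genes, the 250 bases before each RefSeq start are shown (RefSeq, GRCm38.p6, 5′ to 3′ on the gene's own strand). Capitals mark matches of short motifs on either strand: C/EBP TTGCNNAA, STAT TTCNNNGAA, the IL-6 response element CTGGGAA and HNF4 CAAAGNNCA. The stretches lie at chr3:83025903-83026152 (plus strand) for Fga, chr3:83049864-83050113 (minus strand) for Fgb and chr3:83007474-83007723 (plus strand) for Fgg. In the annotation used for counting Fga begins earlier, at 83026076. The last part of its stretch, with most of the HNF4 match, therefore lies within the counted gene.
Fga: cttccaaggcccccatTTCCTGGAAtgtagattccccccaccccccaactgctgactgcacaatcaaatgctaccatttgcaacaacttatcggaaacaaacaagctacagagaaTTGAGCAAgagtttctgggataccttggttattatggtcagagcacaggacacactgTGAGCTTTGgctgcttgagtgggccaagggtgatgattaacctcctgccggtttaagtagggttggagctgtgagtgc
Fgb: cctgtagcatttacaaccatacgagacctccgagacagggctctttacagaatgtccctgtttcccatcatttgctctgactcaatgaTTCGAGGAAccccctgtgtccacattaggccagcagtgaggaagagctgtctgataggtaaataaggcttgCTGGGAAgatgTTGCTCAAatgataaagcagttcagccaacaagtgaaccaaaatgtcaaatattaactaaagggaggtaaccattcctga
Fgg: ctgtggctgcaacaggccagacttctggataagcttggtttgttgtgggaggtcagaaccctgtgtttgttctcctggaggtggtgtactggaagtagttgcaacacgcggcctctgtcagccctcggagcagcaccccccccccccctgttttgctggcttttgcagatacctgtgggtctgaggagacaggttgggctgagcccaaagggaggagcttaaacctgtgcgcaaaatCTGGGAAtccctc
In Fga the capitals are, in order, a STAT match, a C/EBP match and an HNF4 match, in Fgb a STAT, an IL-6 response element and a C/EBP match, and in Fgg an IL-6 response element match, and none of these overlap. Upstream sequences were matched for 34 of the 44 genes. Of these 29.4% (10 genes) held the C/EBP letters, against 10.8% of all 27025 genes with such a sequence, 17.6% (6 genes) against 8.13% held STAT, 11.8% (4 genes) against 10.4% the IL-6 response element and 17.6% (6 genes) against 6.29% HNF4. Another motif searched, for HNF1, was in 8.82% (only 3 genes, F13b, Hc and C4bp) against 0.44%. These matches describe letters and were not tested.

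Of the 5 contact-phase genes 4 fell in control gRNA livers, against 15.8% of all genes. None was called in Pdx1 gRNA livers, where 10.4% of all genes fell. There 3 of the 5 had an unadjusted p under 0.05, which 35.8% of all genes had. F12, which starts the phase as factor XII, had 440.1, 502, 509 and 366 CPM in Pdx1 gRNA livers, 283, 472, 373 and 410.2 CPM in control gRNA livers and 513, 643, 593 and 586 CPM in PBS livers. Its virus libraries were all below PBS, by a log2 fold change of -0.36 ± 0.19 (edgeR adjusted p = 0.184) for Pdx1 gRNA and -0.60 ± 0.19 (edgeR adjusted p = 0.0274) for control gRNA. Klkb1 (plasma prekallikrein) had 142, 133, 159.6 and 37.8 CPM in Pdx1 gRNA livers, 69.8, 163, 84.3 and 119.5 CPM in control gRNA livers and 391, 178, 227 and 179.5 CPM in PBS livers. PBS library 1 was the highest and Pdx1 gRNA library 4 the lowest, and the log2 fold changes were -1.05 ± 0.41 (edgeR adjusted p = 0.0882) for Pdx1 gRNA and -1.16 ± 0.41 (edgeR adjusted p = 0.0479) for control gRNA. F11 (factor XI), whose neighbour on chromosome 8 is Klkb1, 4.66 kb away, was not called, at 0.029 ± 0.19 (edgeR adjusted p = 0.926) for Pdx1 gRNA and -0.30 ± 0.19 (edgeR adjusted p = 0.246) for control gRNA. The kininogen genes Kng1 and Kng2 fell in control gRNA livers, by -1.03 ± 0.29 (edgeR adjusted p = 0.0186) and -0.86 ± 0.23 (edgeR adjusted p = 0.0146), and had log2 fold changes of -0.67 ± 0.29 and -0.53 ± 0.23 in Pdx1 gRNA livers, not called. They are close copies, so counts of each are uncertain.

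Of the 5 procoagulant genes 2 fell in Pdx1 gRNA livers and 4 in control gRNA livers, against 10.4% and 15.8% of all genes. The Pdx1 gRNA calls, F7 and F5, lay near the threshold and were lost in 18 and 19 of the 26 alternatives described below. F7, the factor that tissue factor binds to start clotting, had 105, 83.5, 122 and 33.98 CPM in Pdx1 gRNA livers, 47.8, 81.3, 55.9 and 70.3 CPM in control gRNA livers and 186, 148, 136 and 188 CPM in PBS livers. All virus libraries were below PBS, with log2 fold changes of -0.93 ± 0.31 (edgeR adjusted p = 0.0493) for Pdx1 gRNA and -1.37 ± 0.32 (edgeR adjusted p = 0.00676) for control gRNA. F5, the cofactor of factor Xa, had 392, 486, 479.7 and 374 CPM in Pdx1 gRNA livers, 260.3, 295, 309 and 342 CPM in control gRNA livers and 373, 867, 733 and 952 CPM in PBS livers. PBS library 1 lay among the virus libraries, and the other PBS libraries lay above all of them. F5 fell in both groups, by -0.76 ± 0.25 (edgeR adjusted p = 0.0469) for Pdx1 gRNA and -1.28 ± 0.25 (edgeR adjusted p = 0.00313) for control gRNA. F9, on the X chromosome, had 121, 119.9, 140.4 and 44.9 CPM in Pdx1 gRNA livers, 47.9, 105, 80.4 and 115 CPM in control gRNA livers and 159, 227, 205 and 239.9 CPM in PBS livers. Its virus libraries were all below PBS, and its log2 fold change was -0.96 ± 0.33 (edgeR adjusted p = 0.0533) for Pdx1 gRNA and -1.25 ± 0.33 (edgeR adjusted p = 0.0133) for control gRNA. F2, the thrombin precursor, fell in control gRNA livers (-0.73 ± 0.23 (edgeR adjusted p = 0.0311)) and was at -0.33 ± 0.23 (edgeR adjusted p = 0.333) in Pdx1 gRNA livers. F10, which cleaves prothrombin, was not called in either (-0.35 ± 0.25 (edgeR adjusted p = 0.329) for Pdx1 gRNA and -0.61 ± 0.25 (edgeR adjusted p = 0.0787) for control gRNA). Every control gRNA library lay below every PBS library for F10. It lies between F7 and Proz, 1.5 kb from F7 and 4.24 kb from Proz, and both of those fell in each virus group. The difference between these neighbours was not tested.

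All 4 fibrinolysis genes fell in control gRNA livers and 3 fell in Pdx1 gRNA livers, against 15.8% and 10.4% of all genes. Plg, the plasmin precursor, had 1430.3, 1783, 1844 and 757 CPM in Pdx1 gRNA livers, 719, 1428, 1053 and 1198 CPM in control gRNA livers and 1864, 3111, 2741 and 3402 CPM in PBS livers. All virus libraries lay below PBS, at log2 fold changes of -0.94 ± 0.31 (edgeR adjusted p = 0.0469) for Pdx1 gRNA and -1.34 ± 0.31 (edgeR adjusted p = 0.00716) for control gRNA. Hrg, a histidine-rich glycoprotein that binds plasminogen and heparin, had 340.0, 425, 488 and 188 CPM in Pdx1 gRNA livers, 203, 327, 306 and 351 CPM in control gRNA livers and 606, 944, 1001 and 773 CPM in PBS livers. Its log2 fold changes were -1.21 ± 0.29 (edgeR adjusted p = 0.0117) for Pdx1 gRNA and -1.49 ± 0.29 (edgeR adjusted p = 0.00288) for control gRNA. Cpb2, whose product removes the lysines that plasminogen binds on fibrin, had 173, 190.3, 184 and 141 CPM in Pdx1 gRNA livers, 166, 179, 208 and 178 CPM in control gRNA livers and 245, 350.0, 317 and 323 CPM in PBS livers. Its virus groups were tight and separate from PBS, and it was the one coagulation gene still called in Pdx1 gRNA livers without PBS libraries 2 and 3 (-0.84 ± 0.16 (edgeR adjusted p = 0.00358) with all libraries, and -0.76 ± 0.16 (edgeR adjusted p = 0.00409) for control gRNA). Serpinf2, the plasmin inhibitor, fell in control gRNA livers (-0.66 ± 0.22 (edgeR adjusted p = 0.0358)) and was at -0.54 ± 0.22 (edgeR adjusted p = 0.0938) in Pdx1 gRNA livers.

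Of the 6 anticoagulant genes 1 fell in Pdx1 gRNA livers and 4 in control gRNA livers, against 10.4% and 15.8% of all genes. The 1 of 6 for Pdx1 gRNA is near that share. Proz, the vitamin K-dependent partner of an inhibitor of factor Xa, fell in both, having 277, 271, 320.1 and 121 CPM in Pdx1 gRNA livers, 158, 229, 178 and 233 CPM in control gRNA livers and 446, 522, 476 and 529 CPM in PBS livers. The virus libraries again lay below PBS, with log2 fold changes of -1.0 ± 0.26 (edgeR adjusted p = 0.0166) for Pdx1 gRNA and -1.31 ± 0.26 (edgeR adjusted p = 0.00313) for control gRNA. That inhibitor is the product of Serpina10, which had 188, 171, 225 and 170.2 CPM in Pdx1 gRNA livers, 144, 240.4, 156 and 174 CPM in control gRNA livers and 160.4, 189, 164 and 220.3 CPM in PBS livers. The groups overlapped, and its log2 fold changes were 0.039 ± 0.19 (edgeR adjusted p = 0.899) for Pdx1 gRNA and -0.038 ± 0.19 (edgeR adjusted p = 0.901) for control gRNA. In control gRNA livers it was the coagulation gene nearest to 0, and its sign there turned under another scaling. Serpinc1 (antithrombin) was not called, at -0.39 ± 0.25 (edgeR adjusted p = 0.294) for Pdx1 gRNA and -0.65 ± 0.25 (edgeR adjusted p = 0.0686) for control gRNA. Serpind1 (heparin cofactor II), Proc (protein C) and Pros1 (protein S, its cofactor) fell in control gRNA livers, by -1.13 ± 0.28 (edgeR adjusted p = 0.00953), -0.87 ± 0.31 (edgeR adjusted p = 0.0473) and -0.56 ± 0.19 (edgeR adjusted p = 0.0369). In Pdx1 gRNA livers their log2 fold changes were -0.82 ± 0.28 (edgeR adjusted p = 0.0507), -0.59 ± 0.31 (edgeR adjusted p = 0.189) and -0.53 ± 0.19 (edgeR adjusted p = 0.0614).

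Vtn, the adhesive plasma protein vitronectin, fell in control gRNA livers (-0.72 ± 0.26 (edgeR adjusted p = 0.0486)) and was at -0.47 ± 0.26 (edgeR adjusted p = 0.207) in Pdx1 gRNA livers. Thpo, the hormone that drives platelet production, had 16.6, 15.8, 20.02 and 10.01 CPM in Pdx1 gRNA livers, 10.1, 15.7, 12.5 and 16.6 CPM in control gRNA livers and 31.3, 11.3, 14.96 and 12.2 CPM in PBS livers. PBS library 1 stood above all the other libraries, the groups overlapped, and neither log2 fold change was called (-0.17 ± 0.32 (edgeR adjusted p = 0.741) for Pdx1 gRNA and -0.35 ± 0.32 (edgeR adjusted p = 0.425) for control gRNA).

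On the complement side, the initiation genes split. Of 7, 3 fell in Pdx1 gRNA livers and 5 in control gRNA livers, against 10.4% and 15.8% of all genes. C4b, the C4 component that forms the C3 convertase of the classical and lectin pathways, had 905, 875, 844 and 508 CPM in Pdx1 gRNA livers, 477, 723, 620.2 and 612 CPM in control gRNA livers and 1297, 2462, 2085 and 2131 CPM in PBS livers. All virus libraries lay below PBS, and C4b kept its call in Pdx1 gRNA livers in each of the 26 alternatives. Its levels were 39.3% of PBS in Pdx1 gRNA livers, a log2 fold change of -1.35 ± 0.25 (edgeR adjusted p = 0.003502), and 30.5% in control gRNA livers, -1.71 ± 0.25 (edgeR adjusted p = 0.000725). C4a is a near-identical copy and may share fragments with it. Masp1, a protease of the lectin pathway, had 44.4, 42.6, 47.1 and 44.8 CPM in Pdx1 gRNA livers, 26.2, 23.7, 38.3 and 35.2 CPM in control gRNA livers and 32.5, 178, 125 and 147 CPM in PBS livers. PBS library 1 fell among the virus libraries and the other PBS libraries far above them, so the groups overlapped. Masp1 fell by -1.43 ± 0.37 (edgeR adjusted p = 0.0168) in Pdx1 gRNA livers and -1.96 ± 0.38 (edgeR adjusted p = 0.00258) in control gRNA livers.

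Masp2, the protease that cleaves C4 and C2 in the lectin pathway, fell in both virus groups (-0.81 ± 0.25 (edgeR adjusted p = 0.0332) for Pdx1 gRNA and -1.09 ± 0.25 (edgeR adjusted p = 0.00597) for control gRNA). C1s1, a protease of the classical pathway, fell in control gRNA livers (-1.08 ± 0.28 (edgeR adjusted p = 0.0115)) and was at -0.81 ± 0.28 (edgeR adjusted p = 0.0507) in Pdx1 gRNA livers. Both share exon bases with other genes, as given above. The mannose-binding lectin genes differed. Mbl1 had 103, 111, 132 and 41.8 CPM in Pdx1 gRNA livers, 36.9, 114, 73.7 and 108 CPM in control gRNA livers and 183, 238, 180.3 and 157 CPM in PBS livers. All virus libraries were below PBS, with log2 fold changes of -0.97 ± 0.36 (edgeR adjusted p = 0.0726) for Pdx1 gRNA and -1.19 ± 0.36 (edgeR adjusted p = 0.02504) for control gRNA. Mbl2 had 716, 559, 795 and 528 CPM in Pdx1 gRNA livers, 159, 809.8, 476 and 696 CPM in control gRNA livers and 536, 254, 369 and 703 CPM in PBS livers. Its groups overlapped and its log2 fold changes were 0.48 ± 0.42 (edgeR adjusted p = 0.437) for Pdx1 gRNA and 0.20 ± 0.42 (edgeR adjusted p = 0.752) for control gRNA. Without PBS libraries 2 and 3 these were 0.052 and -0.23. As a ratio of TPM, Mbl2 over Mbl1 was 4.22 to 10.6 in Pdx1 gRNA livers and 3.63 to 5.98 in control gRNA livers, against 0.892 to 3.76 in PBS livers. PBS libraries 1 and 4 had the highest PBS ratios, 2.45 and 3.76, and PBS library 4 lay above control gRNA library 1 at 3.63.

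Cfb, the factor B protease of the alternative pathway, and C2, its counterpart in the classical pathway, lie 85 bases apart on chromosome 17. Cfb had 10.6, 11.6, 9.59 and 9.601 CPM in Pdx1 gRNA livers, 6.64, 3.13, 7.98 and 5.71 CPM in control gRNA livers and 5.58, 44.95, 22.5 and 40.2 CPM in PBS livers. Its log2 fold changes were -1.45 ± 0.47 (edgeR adjusted p = 0.0452) for Pdx1 gRNA and -2.26 ± 0.49 (edgeR adjusted p = 0.00487) for control gRNA. PBS library 1 was as low as the virus livers. C2 had 33.9, 24.9, 30.6 and 15.7 CPM in Pdx1 gRNA livers, 21.9, 34.2, 25.7 and 25.3 CPM in control gRNA livers and 32.2, 39.4, 37.4 and 37.3 CPM in PBS livers, with log2 fold changes of -0.48 ± 0.21 (edgeR adjusted p = 0.124) and -0.45 ± 0.21 (edgeR adjusted p = 0.1199) for Pdx1 gRNA and control gRNA. Both share exon bases with the annotated gene Gm20547, which spans parts of them, so the difference between the neighbours is uncertain. C3 itself had 5830.1, 7026, 8110.4 and 5610.2 CPM in Pdx1 gRNA livers, 4021, 5084, 5402 and 5811 CPM in control gRNA livers and 4837, 9079, 7989 and 18828 CPM in PBS livers. PBS library 4 was far above all other libraries, and C3 fell in control gRNA livers (-1.0 ± 0.35 (edgeR adjusted p = 0.0449)) but was not called in Pdx1 gRNA livers (-0.62 ± 0.35 (edgeR adjusted p = 0.225)).

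With all PBS libraries, terminal complement had the most negative median of any role in both comparisons, an order that was lost without PBS libraries 2 and 3. All 6 genes fell in control gRNA livers and 3 in Pdx1 gRNA livers, against 15.8% and 10.4% of all genes. Their medians were -1.32 for Pdx1 gRNA and -1.83 for control gRNA. C9, which polymerises into the pore, had 160.3, 141, 155 and 40.3 CPM in Pdx1 gRNA livers, 28.4, 127, 79.4 and 105 CPM in control gRNA livers and 171, 945, 436 and 335 CPM in PBS livers. Virus libraries were all below PBS and PBS library 2 was far above the rest. C9 fell by -1.93 ± 0.57 (edgeR adjusted p = 0.0313) in Pdx1 gRNA livers and -2.47 ± 0.59 (edgeR adjusted p = 0.00784) in control gRNA livers. Hc, which encodes complement C5, had 427, 484, 569.7 and 263 CPM in Pdx1 gRNA livers, 216, 378, 301 and 359 CPM in control gRNA livers and 569, 1688, 1010.5 and 1021 CPM in PBS livers. PBS library 1 lay just below the highest virus library, and Hc fell by -1.30 ± 0.33 (edgeR adjusted p = 0.0148) in Pdx1 gRNA livers and -1.77 ± 0.33 (edgeR adjusted p = 0.00228) in control gRNA livers. C6 had 45.00, 48.6, 21.2 and 30.4 CPM in Pdx1 gRNA livers, 10.7, 42.99, 24.9 and 30.2 CPM in control gRNA livers and 14.8, 346, 148 and 46.3 CPM in PBS livers, with PBS library 1 among the lowest of all libraries and PBS libraries 2 and 3 the highest. Its log2 fold change of -2.35 ± 0.78 (edgeR adjusted p = 0.0378) for control gRNA was -0.20 ± 0.54 without PBS libraries 2 and 3, and that of -1.93 ± 0.77 (edgeR adjusted p = 0.0934) for Pdx1 gRNA turned to 0.23 ± 0.55.

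C8a, C8b and C8g encode the chains of C8. C8a had 275, 322, 262 and 139 CPM in Pdx1 gRNA livers, 147, 185, 180.1 and 201 CPM in control gRNA livers and 321, 1225, 644 and 325 CPM in PBS livers. C8b, its neighbour 11.1 kb away on chromosome 4, had 128, 117, 135 and 42.4 CPM in Pdx1 gRNA livers, 43.7, 94.3, 53.9 and 84.96 CPM in control gRNA livers and 123, 482, 216 and 172 CPM in PBS livers. Both were highest in PBS library 2. Their log2 fold changes were alike in size, at -1.33 ± 0.40 (edgeR adjusted p = 0.0305) and -1.23 ± 0.44 (edgeR adjusted p = 0.0635) for Pdx1 gRNA and -1.82 ± 0.40 (edgeR adjusted p = 0.005397) and -1.84 ± 0.45 (edgeR adjusted p = 0.00903) for control gRNA. C8g, on chromosome 2, had 196, 172, 221 and 64.2 CPM in Pdx1 gRNA livers, 62.9, 232, 151 and 183 CPM in control gRNA livers and 335, 374, 361 and 287 CPM in PBS livers. Its PBS libraries did not have the high value in library 2, all virus libraries were below PBS, and its log2 fold changes were -1.06 ± 0.39 (edgeR adjusted p = 0.0682) and -1.11 ± 0.39 (edgeR adjusted p = 0.0439) for Pdx1 gRNA and control gRNA. Without PBS libraries 2 and 3 the terminal median was -0.70 for Pdx1 gRNA and -1.06 for control gRNA. The median of Cfb and C3 was then -1.01 for Pdx1 gRNA and -1.62 for control gRNA, and that of the 4 fibrin genes -1.04 for Pdx1 gRNA and -1.42 for control gRNA. Hc was the one terminal gene called, in control gRNA livers, where 7.05% of all genes fell in that setting.

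Of the 3 regulators Serping1 alone was called, in both virus groups. Of all genes 10.4% fell for Pdx1 gRNA and 15.8% for control gRNA. Serping1 encodes the C1 inhibitor, which also restrains factor XII and kallikrein and so acts in both cascades. It had 394, 367, 428 and 169 CPM in Pdx1 gRNA livers, 157, 370.5, 220.1 and 285 CPM in control gRNA livers and 554, 734, 777 and 648 CPM in PBS livers. All virus libraries were below PBS, and the log2 fold changes were -1.0 ± 0.30 (edgeR adjusted p = 0.0341) for Pdx1 gRNA and -1.39 ± 0.31 (edgeR adjusted p = 0.00537) for control gRNA. Cfi, the protease that cuts C3b and C4b, was at -0.26 ± 0.23 (edgeR adjusted p = 0.432) for Pdx1 gRNA and -0.58 ± 0.23 (edgeR adjusted p = 0.0664) for control gRNA. C4bp, the C4b-binding protein, had 536, 612, 714 and 372 CPM in Pdx1 gRNA livers, 296, 454, 391 and 475 CPM in control gRNA livers and 279, 746, 640.4 and 584 CPM in PBS livers. It was at -0.01 ± 0.29 (edgeR adjusted p = 0.984) for Pdx1 gRNA and -0.48 ± 0.29 (edgeR adjusted p = 0.231) for control gRNA. PBS library 1 was the lowest of all libraries for C4bp.

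**Figure D4:**
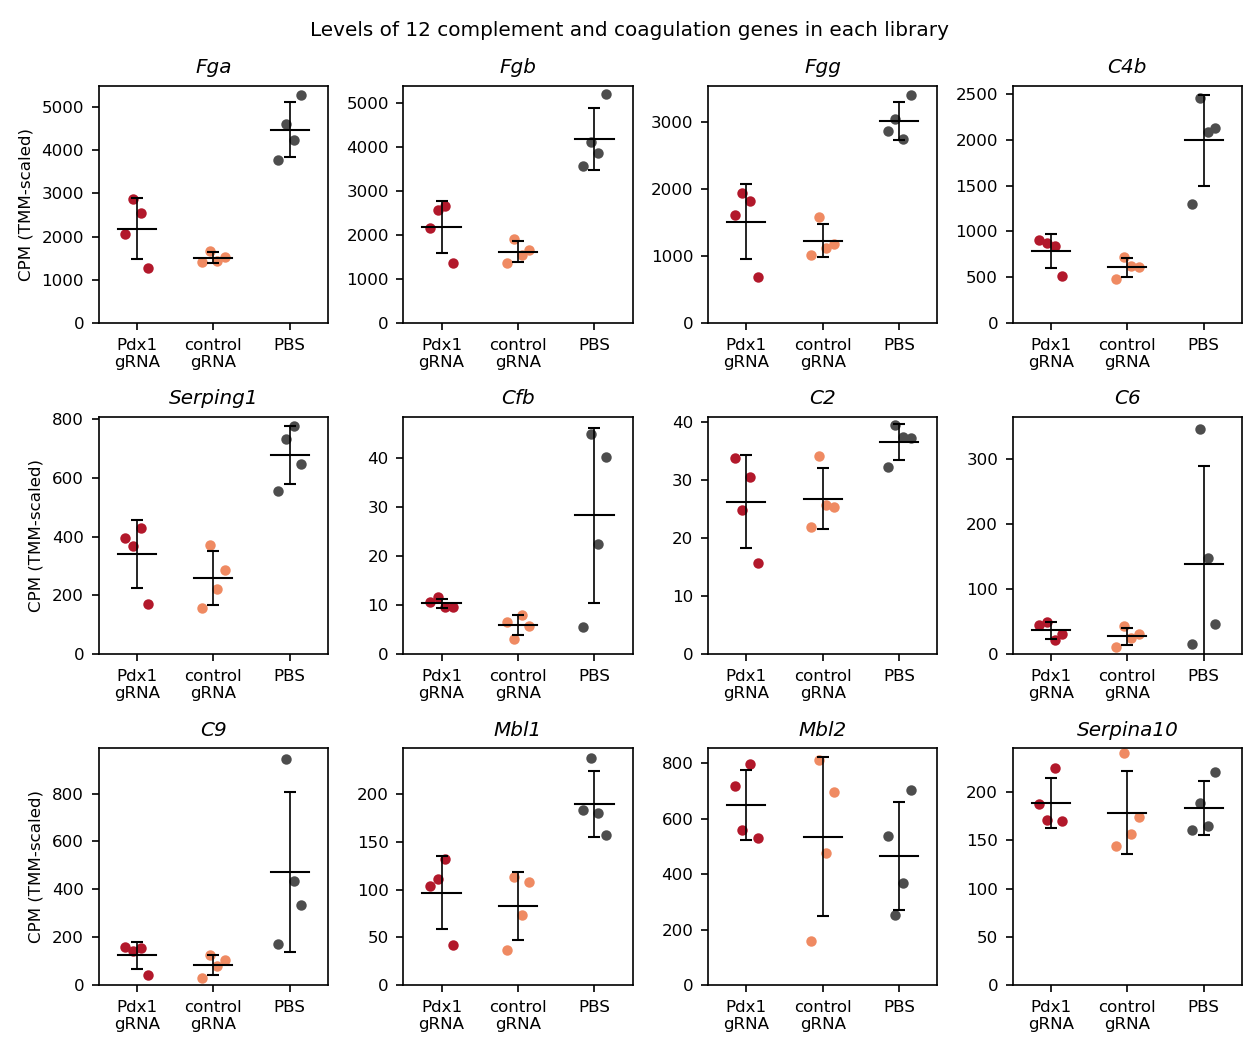
CPM of 12 of the genes in each library (points) with the mean (line) and SD (bars, n = 4), Pdx1 gRNA, control gRNA and PBS from left to right, on axes that start at 0. Fibrinogen, C4b and Serping1 separate virus from PBS livers, Cfb, C6 and C9 are spread widely within PBS, and Mbl2 and Serpina10 overlap.

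Set side by side, 8 of 18 complement and 9 of 26 coagulation genes fell in Pdx1 gRNA livers, against 10.4% of all genes. In control gRNA livers 14 of 18 and 21 of 26 fell, against 15.8% of all genes. Complement had the more negative median with all PBS libraries. The complement and coagulation medians were -1.03 and -0.63 for Pdx1 gRNA and -1.29 and -0.86 for control gRNA, a complement minus coagulation difference of -0.40 and -0.43 log2. Without PBS libraries 2 and 3 the difference was -0.088 for Pdx1 gRNA and -0.065 for control gRNA. Within single libraries the same contrast depended on the PBS livers: complement minus coagulation was -0.37 to -0.19 in Pdx1 gRNA libraries and -0.87 to -0.28 in control gRNA libraries, and ran from -0.43 in PBS library 1 to 0.26 in PBS library 2. For coagulation the library medians were -1.28 to -0.39 in Pdx1 gRNA livers, -1.27 to -0.61 in control gRNA livers and -0.16 to 0.19 in PBS livers, with no overlap between virus and PBS. For complement they were -1.65 to -0.58 in Pdx1 gRNA livers, -2.14 to -0.89 in control gRNA livers and -0.59 to 0.31 in PBS livers, so Pdx1 gRNA library 3 and PBS library 1 met at the edge. The range over PBS livers was narrower for coagulation than for complement. These medians are descriptions, with no test.

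**Figure D5:**
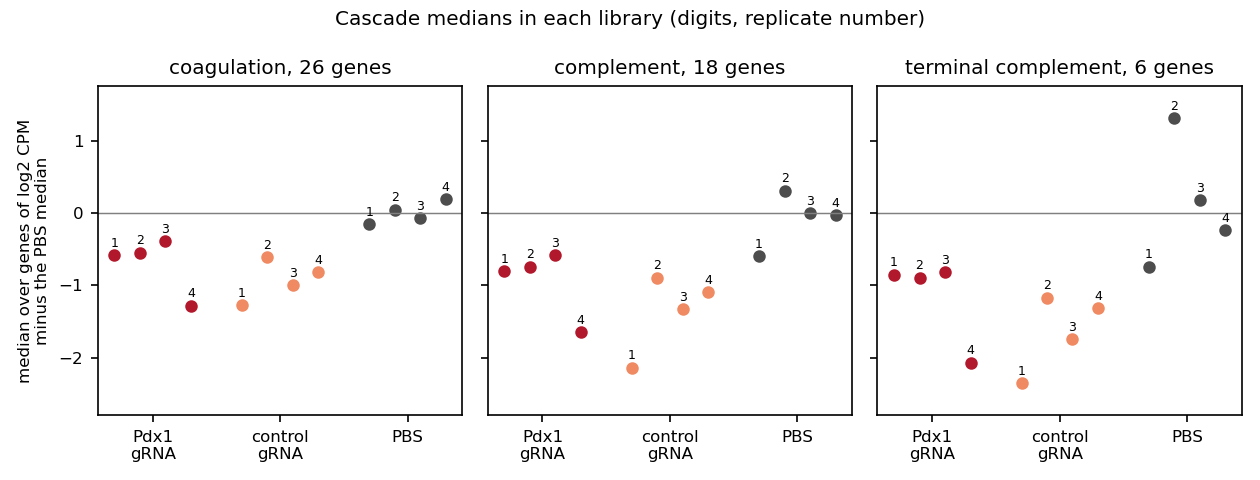
Median over the genes of each cascade, and over terminal complement, of log2 CPM minus the PBS median in each library (points, with the replicate number), Pdx1 gRNA, control gRNA and PBS from left to right. PBS libraries lie between -0.16 and 0.19 for coagulation, and between -0.74 and 1.31 for terminal complement.

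Pdx1 gRNA livers were then set against control gRNA livers, which asks what the Pdx1 guide added. None of the 44 genes was called by edgeR, limma-voom or DESeq2, and none had an unadjusted p under 0.05, against 6.03% of all genes at that unadjusted p and 0% called by edgeR. DESeq2 called 0.0526% of all genes lower. The log2 fold change was positive for 42 genes, Cpb2 and C2 being the exceptions, while it was negative for 50.9% of all genes. Its median was 0.31, at 0.29 for coagulation and 0.39 for complement, and -0.0060 over all genes. In 3 genes every Pdx1 gRNA library lay above every control gRNA library, against 3.48% of all genes: F5, Masp1 and Cfb. Their log2 fold changes were 0.52 ± 0.25 (edgeR adjusted p = 0.809), 0.53 ± 0.37 (edgeR adjusted p = 0.854) and 0.82 ± 0.48 (edgeR adjusted p = 0.838). C4b, the lowest in adjusted p against PBS, was at 0.36 ± 0.25, and Fga at 0.53 ± 0.25. Without Pdx1 gRNA library 4 and control gRNA library 1 the median was 0.36. The 18 genes that passed the threshold in control gRNA livers alone are therefore not shown to differ between the virus groups. Pdx1 gRNA library 4, which had the most Pdx1 counts, was the lowest of its group for 40 of the 44 genes, and its part in the comparison was not tested beyond leaving it out.

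Other genes of the same pathways were taken from lists chosen with earlier results of these data known, so their counts are descriptions. They stand against the 10.4% of all genes that fell and 11.7% that rose in Pdx1 gRNA livers. In control gRNA livers 15.8% of all genes fell and 16.3% rose. Of 25 further coagulation genes tested, 1 rose and 6 fell in Pdx1 gRNA livers and 1 rose and 5 fell in control gRNA livers, with medians of -0.46 and -0.48. Ggcx, the carboxylase that vitamin K-dependent clotting factors need, fell in both, at 56.7 ± 11.9 CPM in Pdx1 gRNA livers and 101 ± 15.7 CPM in PBS livers, by -0.83 ± 0.18 (edgeR adjusted p = 0.00662), and by -1.04 ± 0.18 (edgeR adjusted p = 0.00141) in control gRNA livers. Thbd (thrombomodulin) fell in Pdx1 gRNA livers, by -1.28 ± 0.29 (edgeR adjusted p = 0.00995), and was at -0.77 ± 0.29 (edgeR adjusted p = 0.0565) in control gRNA livers. Serpine2, an inhibitor of thrombin, fell in Pdx1 gRNA livers by -2.50 ± 0.59 (edgeR adjusted p = 0.0113), a value of -1.19 and not called without PBS libraries 2 and 3, and was at -1.53 ± 0.56 (edgeR adjusted p = 0.05402) in control gRNA livers. Pzp, a broad protease inhibitor of plasma, fell in both, with 2492 ± 637 CPM in Pdx1 gRNA livers, 1500.3 ± 219 CPM in control gRNA livers and 5529.9 ± 2265 CPM in PBS livers, by -1.15 ± 0.32 (edgeR adjusted p = 0.0226) for Pdx1 gRNA and -1.88 ± 0.32 (edgeR adjusted p = 0.00155) for control gRNA. Tfpi2 also fell in both, by -0.70 ± 0.20 (edgeR adjusted p = 0.0278) for Pdx1 gRNA and -0.84 ± 0.20 (edgeR adjusted p = 0.00868) for control gRNA. Plaur, the urokinase receptor, rose in both, by 2.24 ± 0.60 (edgeR adjusted p = 0.0198) for Pdx1 gRNA and 2.10 ± 0.60 (edgeR adjusted p = 0.0186) for control gRNA, with 5.22 ± 5.48 CPM in Pdx1 gRNA livers and 1.08 ± 0.428 CPM in PBS livers.

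Of 31 further complement genes tested, none rose and 7 fell in Pdx1 gRNA livers, and 1 rose and 10 fell in control gRNA livers, with medians of -0.65 and -0.31. C7, a terminal component, fell in Pdx1 gRNA livers by -1.66 ± 0.46 (edgeR adjusted p = 0.0218), at 0.4001 ± 0.276 CPM in Pdx1 gRNA livers and 1.35 ± 0.341 CPM in PBS livers, and was at -0.96 ± 0.43 (edgeR adjusted p = 0.103) in control gRNA livers. C4a fell by -3.38 ± 0.88 (edgeR adjusted p = 0.01995) in Pdx1 gRNA livers and -3.23 ± 0.87 (edgeR adjusted p = 0.0162) in control gRNA livers, values of -0.21 and -0.069 without PBS libraries 2 and 3. Itgax, a complement receptor subunit of myeloid cells, rose in control gRNA livers by 1.63 ± 0.41 (edgeR adjusted p = 0.0108) and was at 0.75 ± 0.41 (edgeR adjusted p = 0.215) in Pdx1 gRNA livers. Between Pdx1 gRNA and control gRNA livers no gene of either list was called. The smallest p-values belonged to Pzp (0.73), Thbd (-0.51) and Serpine2 (-0.97) and to C1qa (-0.88), C1qc (-0.99) and Itgax (-0.88), given as log2 fold changes.

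Lists outside the cascades were counted in the same way, against the same shares of all genes. Of 26 acute-phase genes none rose and 10 fell in Pdx1 gRNA livers, and 1 rose and 9 fell in control gRNA livers, with medians of -0.74 and -0.63. Saa4 and Itih3 fell in both groups, by -1.30 ± 0.31 (edgeR adjusted p = 0.0116) and -1.17 ± 0.28 (edgeR adjusted p = 0.0128) for Pdx1 gRNA and -1.56 ± 0.31 (edgeR adjusted p = 0.00331) and -1.42 ± 0.29 (edgeR adjusted p = 0.00342) for control gRNA. Lbp fell in both as well, by -0.92 ± 0.23 (edgeR adjusted p = 0.0157) for Pdx1 gRNA and -0.76 ± 0.23 (edgeR adjusted p = 0.0261) for control gRNA. So did Serpina3m, a member of a family of close copies, by -0.98 ± 0.26 (edgeR adjusted p = 0.0194) for Pdx1 gRNA and -1.81 ± 0.27 (edgeR adjusted p = 0.000672) for control gRNA. Lcn2, an iron-carrier binding protein of inflamed tissue, rose in control gRNA livers (3.17 ± 0.82 (edgeR adjusted p = 0.0133)) and was at 1.18 ± 0.78 (edgeR adjusted p = 0.3002) in Pdx1 gRNA livers. Of 24 other proteins that hepatocytes secrete, 1 fell in Pdx1 gRNA livers and 9 in control gRNA livers, with medians of -0.52 and -0.84. Apob fell in both (-1.24 ± 0.33 (edgeR adjusted p = 0.0204) for Pdx1 gRNA and -1.51 ± 0.34 (edgeR adjusted p = 0.00547) for control gRNA), and Itih1 and Serpinf1 fell in control gRNA livers (-1.75 ± 0.38 (edgeR adjusted p = 0.005101) and -1.33 ± 0.35 (edgeR adjusted p = 0.0123)), with -1.0 ± 0.37 (edgeR adjusted p = 0.0723) and -0.94 ± 0.35 (edgeR adjusted p = 0.0684) in Pdx1 gRNA livers. Of 24 transcription factors of hepatocytes, 1 rose and 5 fell in Pdx1 gRNA livers and 14 fell in control gRNA livers, with medians of -0.48 and -0.74. Ppara, a receptor for fatty acids, had 41.8 ± 10.6 CPM in Pdx1 gRNA livers and 181 ± 71.9 CPM in PBS livers, and fell by -2.11 ± 0.29 (edgeR adjusted p = 0.000725) there and -2.70 ± 0.29 (edgeR adjusted p = 0.000153) in control gRNA livers. Stat5b fell by -1.10 ± 0.19 (edgeR adjusted p = 0.00196) for Pdx1 gRNA and -1.12 ± 0.19 (edgeR adjusted p = 0.00121) for control gRNA. Nr5a2 fell by -0.75 ± 0.20 (edgeR adjusted p = 0.0182) for Pdx1 gRNA and -0.97 ± 0.20 (edgeR adjusted p = 0.00353) for control gRNA. Foxa3 rose in Pdx1 gRNA livers by 0.54 ± 0.15 (edgeR adjusted p = 0.0249) and was at -0.078 ± 0.15 (edgeR adjusted p = 0.735) in control gRNA livers. Against PBS libraries 1 and 4 alone, the numbers that fell in Pdx1 gRNA and control gRNA livers were 1 and 4 for further coagulation genes, 0 and 3 for further complement genes, 4 and 5 for acute-phase genes, 0 and 2 for secreted proteins and 2 and 4 for transcription factors, and none rose. The shares of all genes that fell in that setting were 3.4% for Pdx1 gRNA and 7.05% for control gRNA.

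Markers of the cell types that liver can hold were summed in each library, and most of them were not called. Of all genes 10.4% fell and 11.7% rose in Pdx1 gRNA livers, and 15.8% fell and 16.3% rose in control gRNA livers. A single call in so short a list is near those shares. The 5 hepatocyte markers summed to 48126 to 98422 CPM in Pdx1 gRNA livers, 49350 to 65966 in control gRNA livers and 74444 to 114485 in PBS livers. The lowest sums were those of Pdx1 gRNA library 4 and control gRNA library 1. None of the 5 was called in Pdx1 gRNA livers, and 3 fell in control gRNA livers. The 5 cholangiocyte markers summed to 46.0 to 103, 58.9 to 405 and 24.3 to 70.0 CPM in Pdx1 gRNA, control gRNA and PBS livers, the highest in control gRNA library 1, and 3 rose in control gRNA livers. The 5 sinusoidal endothelial markers summed to 60.2 to 111 CPM in Pdx1 gRNA livers, 73.4 to 147 in control gRNA livers and 105.3 to 289.97 in PBS livers, and 2 fell in Pdx1 gRNA livers and 1 in control gRNA livers. The 6 stellate and fibroblast markers summed to 151 to 298 CPM in Pdx1 gRNA livers, 237 to 719 in control gRNA livers and 309.9 to 448 in PBS livers, and 1 fell in control gRNA livers. The 6 macrophage markers summed to 169.5 to 511 CPM in Pdx1 gRNA livers, 187.6 to 702 in control gRNA livers and 126.3 to 586 in PBS livers, and 1 rose in control gRNA livers. The 4 erythroid markers summed to 71.4 to 158 CPM in Pdx1 gRNA livers, 48.5 to 180.4 in control gRNA livers and 307.9 to 388 in PBS livers, with no overlap of virus and PBS livers, and of the 3 tested 1 fell in Pdx1 gRNA livers and 2 in control gRNA livers. The 5 T and NK cell markers summed to 2.42 to 8.03 CPM in Pdx1 gRNA livers, 7.87 to 12.8 in control gRNA livers and 4.41 to 5.99 in PBS livers, and 1 rose in control gRNA livers. The 5 platelet markers summed to 8.89 to 14.9 CPM in Pdx1 gRNA livers, 10.0 to 13.4 in control gRNA livers and 6.45 to 19.2 in PBS livers, and of the 4 tested 1 fell in control gRNA livers. The 5 neutrophil markers summed to 0.8285 to 2.95 CPM in Pdx1 gRNA livers, 4.96 to 7.51 in control gRNA livers and 0.922 to 8.93 in PBS livers, and neither of the 2 tested was called. The 4 B and plasma cell markers summed to 5.36 to 10.6 CPM in Pdx1 gRNA livers, 5.26 to 14.8 in control gRNA livers and 2.85 to 11.2 in PBS livers, with no call. Every marker of these lists was above 0 in at least one library. Their part in the falls of the clotting and complement genes was not tested.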

How the data were processed

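Liver poly(A) RNA was measured in 12 libraries, 3 groups of 4. The deposited values are whole-number counts of read pairs per gene, not normalized; per the file headers the authors made them with featureCounts 1.4.6-p4 on GENCODE M13 exons, without regard to strand and with both ends mapped. Per the submitters' processing notes, the tools also included Trimmomatic 0.32, STAR 2.4.1a, DESeq2 1.22.0 and R 3.5.1, with builds GRCm38 and mm10. The files give Ensembl gene IDs, and symbols came from a table of GENCODE M21 genes, in which 50376 of 50600 IDs matched. TPM used the deposited exon length of each gene.

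Genes were filtered with filterByExpr (minimum count 10), scaled by TMM and fitted in 1 model of all 12 libraries with edgeR 4.0.16 (robust quasi-likelihood test, two-sided, R 4.3.3), adjusted by Benjamini-Hochberg over 15219 genes and called under 0.05. Log2 fold changes are given ± SE. Alternatives were other scalings, no filter or a stricter one, limma-voom (limma 3.58.1), DESeq2 1.42.0, edgeR without robust estimation, only the 8 libraries compared, a replicate block, a fold threshold of 1.5 (glmTreat), each library left out, and PBS libraries 2 and 3 left out. Leaving out Pdx1 gRNA library 4 with control gRNA library 1 was added after seeing the data. The fit was tested on simulated counts. All pairs of libraries differed beyond counting error (19.3 to 300 in chi-square over degrees of freedom), so none was a copy. Intervals between libraries include depth, which ran from 11824767 to 22008046 counts.

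The 44 genes and the other gene lists were chosen with earlier results of these data known, so counts over them are descriptions. Besides the 44, the genes named are, for each list and direction, up to 3 called genes of lowest p in each virus group against PBS, and the 3 with the smallest p of the pathway lists between virus groups. Some genes that this rule names are not reported here.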

Additional observations from a re-analysis of the deposited data

Results flagged for a closer look

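In each gene and group of 4 libraries, the gap from the highest or lowest library to its nearest neighbour was set against the group's whole range and compared with Dixon's critical value. Of 132 such sets 6 passed, and chance passes about 1 in 20 sets. In Pdx1 gRNA livers library 4 was far below the other 3 libraries for 4 genes. Proc had 200.3 CPM there and 510.3 to 554 in the others, C1s1 144.0 against 297.8 to 322, C4b 508 against 844 to 905, and C9 40.3 against 141.1 to 160.3. In control gRNA livers Cfi had 445 CPM in library 1 and 517 to 531 in the others. In PBS livers Vtn had 2459 CPM in library 3 and 2961 to 3042 in the others.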

How the results depend on the processing

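In the 26 alternatives, 12 of the 35 genes called for control gRNA against PBS kept their call in every one (F7, F5, Fga, Fgb, Fgg, Hrg, Proz, Masp1, C4b, Cfb, Hc and Serping1), and of the 17 for Pdx1 gRNA against PBS only C4b did. Calls lost in most of the 26 were, for Pdx1 gRNA, F7 (18), F5 (19), Plg (17) and Cfb (19). For control gRNA they were Klkb1, F13b and Proc (17 each), Pros1 and Vtn (16 each), C8g (15) and C3 (20). For control gRNA the number that fell was 23 (12 coagulation) with library sizes only, 23 (13 coagulation) with no filter, 15 (7 and 8 complement) with a fold threshold of 1.5, and 16 (11 and 5) without PBS libraries 2 and 3. Among all genes 15.8% fell in the fit used above, 6.99% with library sizes only and 7.05% without PBS libraries 2 and 3. For Pdx1 gRNA it was 10 (complement 4) with no filter, 27 (14 and 13) by DESeq2, 8 (4 and 4) with only the 8 libraries, 1 (0 and 1) with the fold threshold and 2 (1 and 1) without PBS libraries 2 and 3. The shares of all genes were 10.4% in the fit used above, 14.2% by DESeq2 and 3.4% without PBS libraries 2 and 3. The cause of each change was not tested. In that last setting complement minus coagulation was -0.0877 for Pdx1 gRNA and -0.0645 for control gRNA. Leaving out each library in turn gave 7 to 25 genes for Pdx1 gRNA (coagulation 5 to 13, complement 2 to 12) and 22 to 39 for control gRNA (coagulation 12 to 23, complement 10 to 16), with differences of -0.48 to -0.15 and -0.54 to -0.22. Without PBS library 1, 17.3% of all genes fell for Pdx1 gRNA and 21.4% for control gRNA. Shares with no filter, the fold threshold, only the 8 libraries, the replicate block and the other single libraries left out are not given here.

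Library sizes alone moved the median of all genes to 0.22 for Pdx1 gRNA and 0.34 for control gRNA, and the 44 genes relative to it stayed at -0.78 and -1.10. With the replicate number as a block, 11 genes fell for Pdx1 gRNA (complement 5) and 27 for control gRNA. The labels do not say that a number pairs libraries, 3 of 12 same-numbered pairs correlated over 0.1, and 2 of 12 libraries correlated best with their own number.

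Signs turned only in genes that were not called in the comparison concerned. For Pdx1 gRNA against PBS, C4bp was 0.0621 with upper-quartile factors, 0.26 with library sizes, 0.0185 with no filter, 0.0277 by limma-voom, 0.022 with 8 libraries, 0.055 with the block, 0.35 without PBS libraries 2 and 3, 0.125 without Pdx1 gRNA library 4 and control gRNA library 1, and -0.24 to 0.156 with single libraries left out. Thpo was 0.0573 with library sizes and -0.32 to 0.28 with single libraries left out. Without PBS libraries 2 and 3, F11 was -0.10, Serpina10 -0.0309 and C6 0.23, and with single libraries left out F11 was -0.14 to 0.13 and Serpina10 -0.0569 to 0.14. For control gRNA against PBS, Serpina10 was 0.0724 with upper-quartile factors, 0.30 with library sizes, 0.00443 with no filter, 0.0341 without the added pair and -0.21 to 0.0613 with single libraries left out. F11 was 0.0405 with library sizes, and Mbl2 -0.23 without PBS libraries 2 and 3. With single libraries left out Thpo was -0.51 to 0.0992, the highest without PBS library 1, and Mbl2 -0.0683 to 0.49. For Pdx1 gRNA against control gRNA, Pros1 was -0.022 with upper-quartile factors and -0.0415 with library sizes, C8g -0.0278 with library sizes, Klkb1 -0.0227 with the block and C2 0.0716 without the added pair. With single libraries left out Pros1 was -0.0792 to 0.11, C8g -0.20 to 0.32, Klkb1 -0.0653 to 0.41, C2 -0.17 to 0.157, Serpina10 -0.018 to 0.25, Mbl1 -0.013 to 0.48 and Mbl2 -0.0105 to 0.55.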

Other observations

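Ratios of TPM between genes whose products join in one complex, or that are close copies, are given per group. Fga over Fgb was 1.18 to 1.42 in Pdx1 gRNA livers, 1.11 to 1.31 in control gRNA livers and 1.29 to 1.42 in PBS livers. Fgg over Fgb was 0.925 to 1.38 in Pdx1 gRNA livers, 1.31 to 1.5 in control gRNA livers and 1.20 to 1.47 in PBS livers, with the lowest value in Pdx1 gRNA library 4. C8a over C8b was 1.35 to 2.30 in Pdx1 gRNA livers, 1.37 to 2.35 in control gRNA livers and 1.32 to 2.09 in PBS livers. C8g over C8b was 2.5 to 2.78 in Pdx1 gRNA livers, 2.45 to 4.76 in control gRNA livers and 1.32 to 4.66 in PBS livers, the lowest of all being PBS library 2. Kng1 over Kng2 was 4.39 to 5.59 in Pdx1 gRNA livers, 4.10 to 5.85 in control gRNA livers and 5.02 to 6.003 in PBS livers. C3 alone took 11.6 to 17.6% of the TPM of the 44 genes in Pdx1 gRNA livers, 10.5 to 14.4% in control gRNA livers and 7.23 to 19.1% in PBS livers. These groups overlapped for each ratio and for C3.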
